A study of Arundo donax with 12 samples.

Results

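The leaf response of giant reed (Arundo donax) to cadmium nitrate was followed in the 6 leaf libraries of a series of 12, chosen by their labels as leaf of treated plants (Cd_L, 3 replicates) and leaf of control plants (CK_L, 3 replicates). The root groups of the same experiment, Cd_R and CK_R (3 replicates each), were used only where a leaf value was set against root. All plants were of the G10 ecotype, grown outdoors from a single stem node per pot in 8 kg of clay soil, with the pots laid out in randomized blocks. Treated pots had received cadmium nitrate at 4 mg/kg of soil, and control pots ammonium nitrate (5.774 g/L by the sample records) meant to balance the nitrogen supply. Leaves were taken 85 days after the start of the trial, so that 1 dose and 1 time are represented. The controls differ from the treated plants in the nitrogen salt as well as in cadmium, and the effects of these 2 differences cannot be told apart. In bulk leaf RNA, fewer cells of a type and less RNA per cell cannot be told apart either.

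Giant reed is a tall perennial grass that spreads by rhizomes and is grown for biomass, also on polluted soils. Cadmium is a metal without a known function in plants. It enters roots through carriers of nutrient metals, part of it is bound by thiol peptides and stored in vacuoles, and part moves with the xylem sap to the shoot. In leaves, excess cadmium is known to lower photosynthesis and to disturb the redox state and the supply of other metals. Plants respond through membrane transporters, antioxidant enzymes, hormone pathways and transcription factors.

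The deposited table gives the number of reads estimated for each unigene, the longest transcript of each cluster in an assembly made from these reads without a genome. Totals were 23867648 to 25460494 counts in Cd_L and 22501901 to 26033492 in CK_L. Of 126668 unigenes, 94388 had a count in a leaf library, with 75678 to 78400 detected per Cd_L library and 74813 to 80980 per CK_L library. Levels are given in CPM (counts per 1000000, scaled by the TMM method of edgeR), and 1 CPM rests on about 24.5 counts. A leaf identity check by defining markers such as subunits of Rubisco or of the antenna complexes was not made, because none of them carries a name in the tables used here.

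At the level of the whole leaf transcriptome, Cd_L and CK_L libraries differed from each other about as much as replicates of 1 treatment did. The median absolute difference of a unigene between a Cd_L and a CK_L library was 0.381 on the log2 CPM scale (median of 9 pairs of libraries). It was 0.376 between Cd_L replicates and 0.46 between CK_L replicates (3 pairs each). Between treatments divided by within treatments, the ratio was 0.961. Lowly expressed unigenes varied most, with 0.583 between treatments below 1 CPM, against 0.262 from 10 to 100 CPM. CK_L was the more variable group, and 60.9% of the unigenes tested had a wider range within CK_L than within Cd_L. Over all unigenes tested, the larger differences were those of CK_L replicate 2, at 0.46 and 0.558. CK_L replicates 1 and 3 differed by 0.374, within the 0.309 to 0.417 of the Cd_L pairs. At 100 CPM and above these 2 controls differed by 0.448, beyond the Cd_L pairs (0.271 to 0.375).

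**Figure D1:**
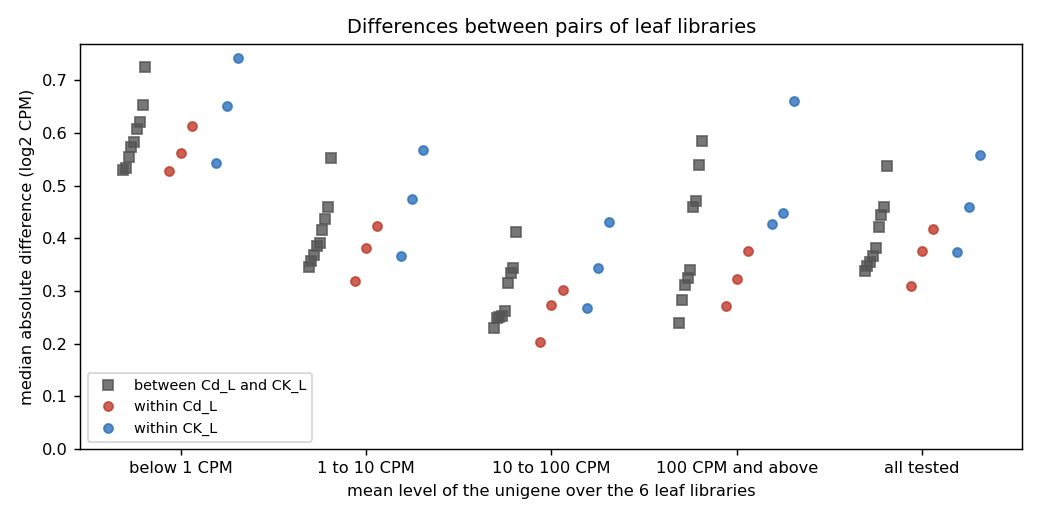
Median absolute difference in log2 CPM between 2 leaf libraries, by the mean level of the unigene; each point is 1 pair of libraries (9 between Cd_L and CK_L, 3 within each group). Pairs of different treatment cover the same range as pairs within a treatment, with medians over all unigenes tested of 0.381 between treatments, 0.376 within Cd_L and 0.46 within CK_L.

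In a principal component analysis of the 6 leaf libraries, component 1 explained 42.2% of the variance and spread the replicates of each group. Its scores were -49.7, 71.6 and -41.7 in Cd_L replicates 1, 2 and 3, and 40.6, -116.8 and 96.1 in CK_L replicates 1, 2 and 3. CK_L replicates 2 and 3 thus lay at its opposite ends. The treatments lay apart on the second component, which held 20.2%, with -22.9, -89.3 and -16.6 in Cd_L and 19.2, 31.8 and 77.9 in CK_L. No test was made on these scores.

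Unigene by unigene, the quasi-likelihood test of edgeR compared Cd_L with CK_L in 48194 unigenes and called 0 differentially expressed genes (DEGs; 0.0% of those tested), at an adjusted p of 0.05 or less and an absolute log2 fold change of 1 or more. The lowest adjusted p was 0.958 (edgeR, Benjamini-Hochberg). The unadjusted p was under 0.05 for 2047 unigenes (4.25%), of which 849 were higher in Cd_L (1.76% of those tested) and 1198 lower (2.49%). The count was 4375 (8.69% of 50361) without CK_L replicate 2, still with 0 DEGs. The Wald test of DESeq2 called 73 DEGs with default settings (0.0774% of 94329 unigenes with a p), 22 higher and 51 lower in Cd_L. Without its independent filtering it called 55 (0.0583%), 19 higher and 36 lower. As edgeR called no unigene, the single unigenes below are described by their values, and no direction given for them passed its test.

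The 2 groups of libraries lay apart, with every Cd_L value above or below every CK_L value, in 9.53% of the unigenes tested. These were 2375 unigenes higher (4.93%) and 2216 lower in Cd_L (4.6%). Scaled by library totals alone, which moves the median fold change upwards by 0.11 (log2), the numbers were 3325 and 1225. With 3 libraries against 3 and no difference between groups, the share to be found is 0.1, so nothing is read from the 9.53%. A fitted log2 fold change of at least 1 was found for 802 unigenes higher (1.66%) and 1399 lower in Cd_L (2.9%). Both conditions, separate groups and at least a 2-fold difference, were met by 918 unigenes. The middle of the distribution was close to 0, with a median log2 fold change of -0.012 and 90% of the unigenes between -0.8 and 0.67. Among the 1343 unigenes at 100 CPM or above, the median was -0.125.

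The most abundant leaf unigene, Cluster-14691.48639, has no annotation in the tables used here and was named after its values were seen. It had 8508, 10210 and 11514 CPM in Cd_L, against 14130, 20393 and 17862 CPM in CK_L. All 3 Cd_L values were below the lowest CK_L value. Its log2 fold change was -0.79 (SE 0.5, unadjusted p = 0.155, edgeR's quasi-likelihood test), which did not pass the test.

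The study's own list of 55 leaf DEGs gives a name or a GO term to 36 unigenes and none to 19. It was selected on this same contrast, so the fold changes of its members are a description and no evidence of direction. Of the 55, 19 had the higher mean in Cd_L and 36 the lower, and 49 had enough counts for edgeR. In those 49 the log2 fold changes ran from -3.76 to 5.35, with unadjusted p between 1.99e-05 and 0.00646, 18 of them positive and 31 negative. DESeq2 with default settings called 54 of the 55, and without independent filtering its 55 calls were the 55 members. The groups lay apart in 54 of the 55. The exception was Cluster-14691.50283, annotated with actin binding, at 1.13, 2.96 and 1.46 CPM in Cd_L and 34.1, 38.8 and 2.91 CPM in CK_L, where CK_L replicate 3 was as low as the treated leaves. Levels were moderate, with a mean of at least 1 CPM in 51 members.

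**Figure D2:**
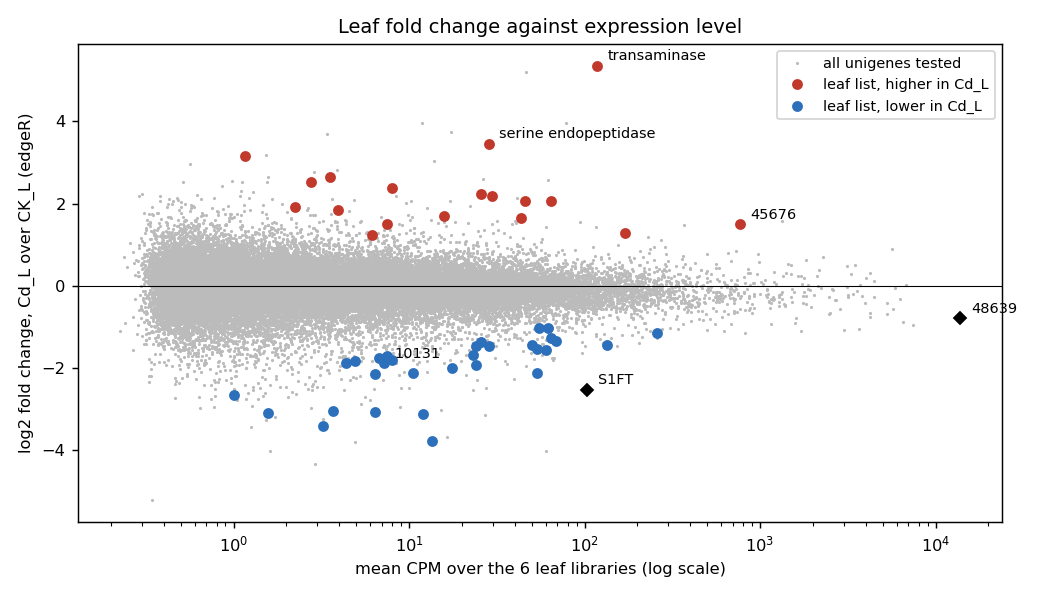
Leaf log2 fold change (Cd_L over CK_L, edgeR) against mean CPM over the 6 leaf libraries on a log scale; grey points are the 48194 unigenes tested, red and blue points the 18 and 31 tested members of the leaf list, and black diamonds sucrose 1-fructosyltransferase (S1FT) and the most abundant unigene (Cluster-14691.48639). The list occupies the edges of the cloud between -3.76 and 5.35, and S1FT lies at -2.52.

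The transaminase unigene Cluster-14691.63116 had the largest log2 fold change of the 49 members tested by edgeR. Transaminases move amino groups between amino acids and keto acids with pyridoxal phosphate as cofactor, and this unigene carries both terms. It had 250.1, 87.0 and 353.2 CPM in Cd_L, against 1.48, 4.96 and 10.6 CPM in CK_L. Even the lowest treated leaf was several times above the highest control leaf. The log2 fold change was 5.35 (SE 0.84, unadjusted p = 0.000238, edgeR), with an adjusted p of 1.0 by edgeR and 1.08e-12 by DESeq2. With 1 library left out it stayed between 4.89 and 6.18. Without a filter on low counts, edgeR called this unigene and Cluster-14691.15642 (log2 fold changes of 5.36 and -3.41, adjusted p = 0.0343 each). Cluster-14691.15642 has no GO term and had 0.899, 0.476 and 0.258 CPM in Cd_L and 5.49, 7.13 and 5.07 CPM in CK_L.

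Both proteolysis unigenes of the list were higher in Cd_L. The serine endopeptidase Cluster-14691.69201, which also carries the term defense response to bacterium, had 58.6, 86.5 and 11.1 CPM in Cd_L, against 1.7, 3.91 and 8.68 CPM in CK_L. Cd_L replicate 3 was only just above CK_L replicate 3. Its log2 fold change was 3.46 (SE 0.83, unadjusted p = 0.00337, edgeR). Cluster-14691.54772, annotated with omega peptidase and cysteine endopeptidase activity, had 5.59, 2.89 and 9.94 CPM in Cd_L and 1.12, 1.52 and 0.282 CPM in CK_L (log2 fold change of 2.64, SE 0.64).

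Among the 3 transport unigenes, 2 were higher and 1 lower in Cd_L. Cluster-14691.74483, annotated with metal ion transmembrane transport, was scarce, with 1.13, 2.3 and 2.84 CPM in Cd_L against 0.144, 0.506 and 0.0469 CPM in CK_L. Its log2 fold change was 3.16 (SE 0.72, unadjusted p = 0.00239, edgeR). Cluster-14691.67419 carries terms of the V0 domain of the vacuolar-type proton ATPase, the pump that acidifies vacuoles, and of oxidoreductase activity. It had 11.6, 8.09 and 20.3 CPM in Cd_L, against 1.05, 3.13 and 3.61 CPM in CK_L. Its neighbour in the cluster numbering, Cluster-14691.67420, has no GO term and was also higher in all 3 treated leaves, with 3.52, 3.18 and 7.45 CPM against 0.831, 0.782 and 0.845 CPM in CK_L. Such neighbours can be forms or copies of 1 gene, between which the counting splits reads. Cluster-14691.43166, annotated with mitochondrial electron transport and the Fo part of ATP synthase, was lower, with 34.2, 26.7 and 21.2 CPM in Cd_L and 100.3, 55.4 and 81.8 CPM in CK_L.

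Of the 4 carbohydrate unigenes, 3 were lower in Cd_L. Cluster-14691.42839 is annotated with beta-amylase, which releases maltose from starch. It had 12.4, 11.8 and 8.87 CPM in Cd_L, against 27.7, 31.2 and 46.7 CPM in CK_L, with a log2 fold change of -1.67 (SE 0.26, unadjusted p = 0.00024, edgeR). The glycosyl hydrolase Cluster-14691.48520 had 35.7, 31.3 and 24.9 CPM in Cd_L and 101.4, 78.8 and 91.6 CPM in CK_L. Cluster-14691.29892, with terms for breakdown of polysaccharides, had 2.78, 4.28 and 2.15 CPM in Cd_L and 10.6, 12 and 8.59 CPM in CK_L. In these 3 the replicates of each group lay close together, unlike in the proteolysis unigenes. The fourth, Cluster-14691.35486, annotated as an enzyme regulator with phosphotransferase mutase activity, was higher, with 63.4, 96.7 and 62.2 CPM in Cd_L against 19.6, 22.5 and 11.5 CPM in CK_L.

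Only 3 members carry chloroplast terms. Cluster-14691.52923, annotated with photosynthesis, had 31.4, 20.5 and 29.1 CPM in Cd_L, against 102.3, 60.4 and 58.3 CPM in CK_L (log2 fold change of -1.45, SE 0.29). Cluster-14691.42884 and Cluster-14691.43873, for which the annotation gives the location alone, went the other way. The first had 22.2, 73.5 and 31.3 CPM in Cd_L and 11, 6.67 and 9.39 CPM in CK_L. The second had 20.1, 92.3 and 33.4 CPM in Cd_L and 12.5, 7.49 and 12.3 CPM in CK_L. Both followed the same profile over the 6 libraries, highest in Cd_L replicate 2 and lowest in CK_L replicate 2. Cluster-14691.47220, a protein dimerization unigene, was likewise highest in Cd_L replicate 2, with 56.5, 187.6 and 69.7 CPM in Cd_L and 26.4, 20.6 and 28.1 CPM in CK_L.

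The 7 unigenes with transcription factor activity comprised 6 lower and 1 higher in Cd_L. Cluster-14691.26959 had 2.27, 1.87 and 2.93 CPM in Cd_L, against 13.4, 10.6 and 7.13 CPM in CK_L, and Cluster-14691.47376 had 0.625, 1.06 and 0.689 CPM in Cd_L against 12.5, 5.01 and 2.21 CPM in CK_L. Cluster-14691.16086, also annotated with response to water, had at most 0.512 CPM in Cd_L and at least 1.43 CPM in CK_L. Cluster-14691.47843 and Cluster-14691.47437 were the most abundant of the lower ones. The first had 42.2, 41.2 and 34.1 CPM in Cd_L and 103.6, 69.1 and 122.3 CPM in CK_L. The second had 44.4, 41.7 and 36.2 CPM in Cd_L and 82.3, 71.8 and 95 CPM in CK_L. The single higher one, Cluster-14691.61107, had tight replicates, with 8.72, 8.93 and 8.39 CPM in Cd_L and 4.26, 3.31 and 3.47 CPM in CK_L (log2 fold change of 1.23, SE 0.21). Cluster-14691.561 had 1 count in all 3 Cd_L libraries together, against 94 in CK_L, a ratio of CK_L over Cd_L of 101.2 (exact 95% interval 17.7 to 4037.8, for counting error only).

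The 3 kinase unigenes and the 3 unigenes of ester hydrolysis or lipid metabolism were all lower in Cd_L. Diacylglycerol kinase, the function given for Cluster-14691.44033, turns a lipid messenger into phosphatidic acid. This unigene had 74.6, 91.3 and 53.3 CPM in Cd_L, against 189.8, 205.4 and 194.7 CPM in CK_L, with a log2 fold change of -1.43 (SE 0.25, unadjusted p = 0.000511, edgeR). The protein kinase Cluster-14691.37485 had 1.37, 2.01 and 0.732 CPM in Cd_L and 5.89, 2.76 and 25.9 CPM in CK_L, with most of the control signal in CK_L replicate 3. Cluster-14691.42995, an ester hydrolase, had 1.95, 4.1 and 1.38 CPM in Cd_L and 25.6, 33.3 and 5.44 CPM in CK_L. The lipid metabolism unigene Cluster-14691.46319 had 25.4, 22.0 and 13.2 CPM in Cd_L and 141.9, 75.3 and 44.1 CPM in CK_L. For both of these, CK_L replicate 3 was the lowest control.

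**Figure D3:**
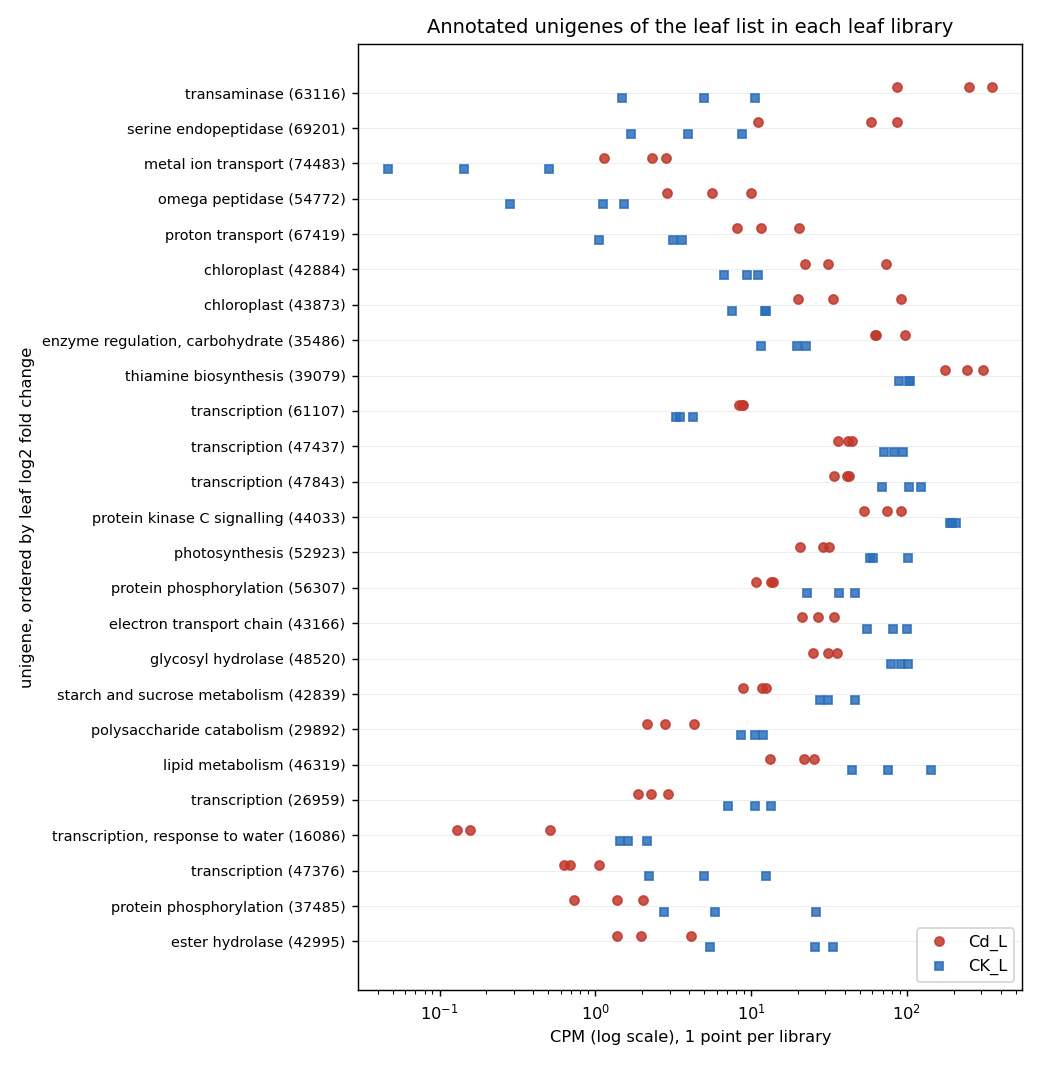
CPM (log scale) of 25 annotated members of the leaf list in each leaf library, ordered by log2 fold change; red circles are the 3 Cd_L libraries and blue squares the 3 CK_L libraries of a unigene. The groups lie apart in every row, narrowly for the serine endopeptidase (11.1 in Cd_L replicate 3, 8.68 in CK_L replicate 3) and widely for the transaminase (87.0 as the lowest Cd_L value, 10.6 as the highest CK_L value).

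Other annotated members included Cluster-14691.39079, whose terms list thiamine biosynthesis and response to light. It had 307.4, 243.4 and 175.9 CPM in Cd_L, against 103.5, 105.0 and 89.4 CPM in CK_L (log2 fold change of 1.29, SE 0.26). The oxidoreductase Cluster-14691.49306 had tight replicates, with 38.9, 40.7 and 32.8 CPM in Cd_L and 94.8, 92.4 and 85.5 CPM in CK_L. The DNA repair and recombination unigene Cluster-14691.40925 was among the members with the smallest difference, with 34.1, 35.5 and 38.7 CPM in Cd_L and 67.2, 82.6 and 71.3 CPM in CK_L (log2 fold change of -1.03, SE 0.18). Just outside the list lay Cluster-14691.35003, called by DESeq2 with default settings only, with 70.8, 70.5 and 66.1 CPM in Cd_L and 27.5, 38.8 and 36.0 CPM in CK_L (log2 fold change of 1.02). The DESeq2 adjusted p was at most 0.022 in the members it gave one, and 0.0256 to 0.0496 in the 19 unigenes called only with default settings.

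Among the 19 members without a GO term, 6 were higher in Cd_L and 13 lower. The most abundant member of the whole list, Cluster-14691.45676, had 1293, 1319 and 784 CPM in Cd_L, against 409, 334 and 460 CPM in CK_L. Its log2 fold change was 1.5 (SE 0.33, unadjusted p = 0.00189, edgeR). The lowest p of the leaf fit belonged to Cluster-14691.10131, which had 3.28, 2.78 and 3.1 CPM in Cd_L and 10, 11.6 and 12.3 CPM in CK_L (log2 fold change of -1.88, SE 0.21, unadjusted p = 1.99e-05). Both groups were tight in this unigene. Cluster-14691.62430 was similarly tight in the other direction, with 12.9, 10.8 and 9.69 CPM in Cd_L and 4.41, 4.09 and 3.29 CPM in CK_L.

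A filter on low counts removed 6 members. Cluster-22339.0 had 59 counts in Cd_L and none in CK_L, at least 18.3-fold higher in Cd_L taking 3 counts in CK_L as the limit of detection (the floor, set per group). Cluster-33255.0 had 1 count in Cd_L and 97 in CK_L (ratio of CK_L over Cd_L of 104.4, exact 95% interval 18.3 to 4165.4). The unigenes Cluster-14691.12976, Cluster-14691.12978 and Cluster-14691.12979, adjacent in numbering, shared 1 profile, nearly silent in Cd_L and graded in CK_L. The first of them had 0.235, 0.293 and 0.258 CPM in Cd_L and 5.53, 3.03 and 0.469 CPM in CK_L. CK_L replicate 3 was the lowest control in all 3, and they may not be separate genes for the counting.

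The leaf list was selected on these same libraries, so its overlap with the ranking that follows was largely fixed by that choice. All unigenes tested were ranked by unadjusted p, among those with separate groups and a mean of 1 CPM or more. These were 3674 unigenes, 1881 higher and 1793 lower in Cd_L. The 8 highest-ranked in each direction were all members of the leaf list. Besides those given above they included Cluster-14691.44186 (21.2, 29.8 and 21.6 CPM in Cd_L, against 9.14, 8.41 and 4.93 CPM in CK_L), Cluster-14691.48990 (59.9, 89.5 and 47.7 CPM in Cd_L, against 18.1, 26.9 and 18.4 CPM in CK_L) and Cluster-14691.69395, located in the nucleus (4.26, 2.3 and 4.0 CPM in Cd_L, against 0.831, 0.873 and 1.08 CPM in CK_L).

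Sucrose 1-fructosyltransferase (S1FT, Cluster-14691.50971) makes the first step of fructan synthesis by joining the fructose of 1 sucrose to another. It was among the genes that the study measured by qRT-PCR. Its primers are given as the study lists them, with those of the reference gene, a cyclin dependent kinase (Cluster-14691.35187). Whether they match these unigenes alone was not checked. Sequences are in lower case, 5′ to 3′, with no part marked.
S1FT forward: catcgacttctaccccgtcg
S1FT reverse: gtagtagtcgtggcggtcg
Reference forward: catacgggcaagtgttcatgg
Reference reverse: tccttgagctggatgacgttc

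S1FT had 66.1, 17.0 and 9.26 CPM in Cd_L, against 59.7, 185.7 and 284.4 CPM in CK_L. The groups overlapped, as Cd_L replicate 1 exceeded CK_L replicate 1. The log2 fold change was -2.52 (SE 0.82, unadjusted p = 0.0155, edgeR), and with 1 library left out it ranged from -3.75 to -1.98. The unadjusted p was 0.0513 without CK_L replicate 3 and 0.0514 without Cd_L replicate 2. The reference gene had 23.1, 25.9 and 27.0 CPM in Cd_L, against 20.6, 26.2 and 26.8 CPM in CK_L, a log2 fold change of 0.05 (SE 0.19, unadjusted p = 0.806, edgeR) with overlapping groups. A xylanase (Cluster-14691.49288) was also among the qRT-PCR genes, though not listed there for leaf. It had 3.71, 3.15 and 3.1 CPM in Cd_L and 20.3, 2.02 and 58.8 CPM in CK_L. Its controls spanned a wider range than the treated leaves, from below all of them to far above.

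The lists of functions that the study took from MapMan came from the DEGs of Cd_R against Cd_L, less those of CK_R against CK_L. Both leaf groups thus entered the choice, and the direction of the members in leaf is not independent. Against the 4.25% of all unigenes with an unadjusted p under 0.05, none of the 30 tested phytohormone unigenes, of the 46 tested protein biosynthesis unigenes or of the 4 polyamine unigenes had one. It was under 0.05 for 3 of 12 cell wall unigenes and 1 of 10 nutrient uptake unigenes, each of them lower in Cd_L. Median log2 fold changes were -0.16 for phytohormone action, -0.08 for protein biosynthesis, -0.32 for the cell wall, -0.16 for nutrient uptake and -0.2 for polyamines, beside -0.01 over all unigenes tested. Separate groups were found for 1 protein biosynthesis and 1 nutrient uptake unigene of those tested, and for none of the phytohormone, cell wall and polyamine unigenes tested, beside 9.53% of all unigenes.

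**Figure D4:**
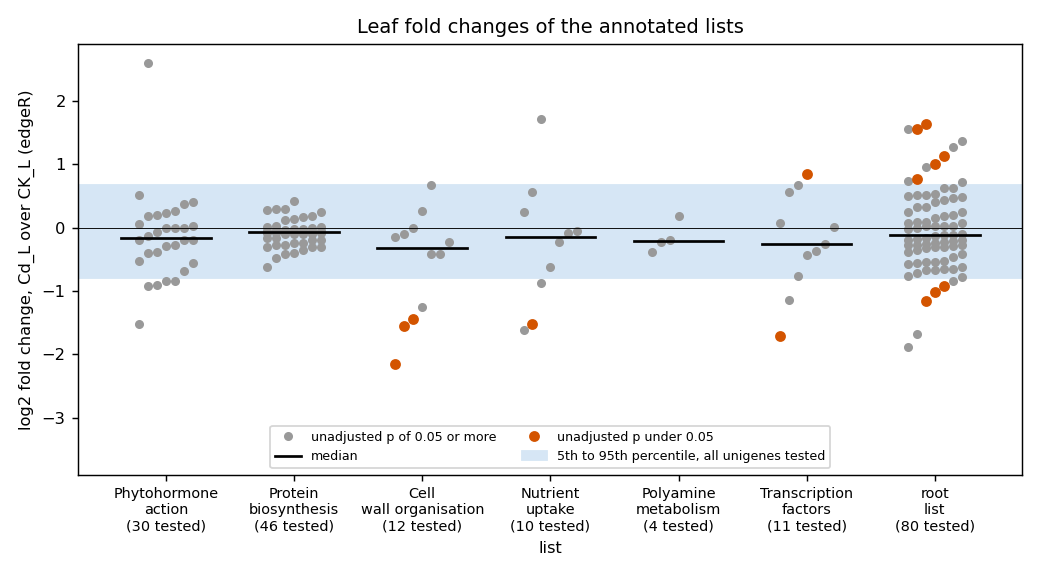
Leaf log2 fold change (Cd_L over CK_L, edgeR) of each tested unigene in 7 lists; black bars are medians, orange points have an unadjusted p under 0.05, and the blue band spans the 5th to 95th percentile of all 48194 unigenes tested (-0.8 to 0.67). Most points lie in the band, and the orange points number 3 for the cell wall, 1 for nutrient uptake, 2 for transcription factors and 8 for the root list.

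The 3 cell wall unigenes act in different polymers. The galacturonosyltransferase Cluster-14691.32672 had 16.3, 5.05 and 10.7 CPM in Cd_L, against 41.1, 34.3 and 11.5 CPM in CK_L (log2 fold change of -1.44, SE 0.54, unadjusted p = 0.03, edgeR). The COB regulator of cellulose deposition (Cluster-14691.74878) had 5.71, 2.27 and 4.26 CPM in Cd_L, against 19.7, 11 and 4.98 CPM in CK_L. Cluster-14691.66836 is annotated in 1 of the study's tables as a pectin methylesterase, which removes methyl groups from pectin, and in another as a member of the invertase and pectin methylesterase inhibitor family. It had 1.68, 1.1 and 6.8 CPM in Cd_L and 10.1, 3.22 and 29.5 CPM in CK_L, and with 1 library left out its log2 fold change ranged from -3.36 to -1.06. In each of these 3 unigenes 1 control library lay inside the range of the treated ones. The most abundant other wall unigenes were ASD (Cluster-14691.51009, 23.7, 26.5 and 21.1 CPM in Cd_L against 18.6, 21.8 and 38.8 CPM in CK_L) and coniferin beta-glucosidase (Cluster-14691.48618, 14.4, 11.1 and 18.4 CPM in Cd_L against 20.3, 7.17 and 31.1 CPM in CK_L), both with overlapping groups.

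Phosphate transporters of the PHT1 family, which carry phosphate across the plasma membrane, were lower on average in Cd_L for 3 of 3 unigenes. Cluster-14691.52580 had 6.1, 9.44 and 5.47 CPM in Cd_L, against 38.6, 11.1 and 10.3 CPM in CK_L, and its groups lay apart (log2 fold change of -1.52, SE 0.53, unadjusted p = 0.0223, edgeR). Without CK_L replicate 1 the log2 fold change was -0.62. Cluster-14691.45899 had 17.8, 16.6 and 11.7 CPM in Cd_L and 36.3, 19.8 and 14.9 CPM in CK_L. Cluster-14691.51441 had 2.11, 3.88 and 0.732 CPM in Cd_L and 13.1, 3.03 and 4.41 CPM in CK_L. In all 3 unigenes CK_L replicate 1 was the highest library, and the 3 may share reads. Nitrate reductase, the first enzyme of nitrate assimilation, showed overlapping groups. Its main unigene, Cluster-14691.46130, had 39.0, 34.5 and 54.5 CPM in Cd_L and 31.7, 56.2 and 45.2 CPM in CK_L, and Cluster-14691.36103 had 4.1, 1.9 and 3.79 CPM in Cd_L against 1.7, 14.3 and 1.97 CPM in CK_L, highest in CK_L replicate 2.

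Among the hormone and polyamine unigenes, single libraries, control or treated, could stand far from the others of their group. Allene oxide cyclase, an enzyme of jasmonate synthesis (Cluster-14691.51153), had 238.2, 230.7 and 267.6 CPM in Cd_L, against 160.5, 446.5 and 134.8 CPM in CK_L. The treated leaves were alike and lay between CK_L replicate 2 and the other controls. Agmatine iminohydrolase, a step towards putrescine (Cluster-14691.45378), repeated this order with 75.8, 77.0 and 79.6 CPM in Cd_L and 55.5, 161.8 and 52.7 CPM in CK_L. ACC oxidase, which releases ethylene (Cluster-14691.52687), had 123.1, 64.5 and 144.6 CPM in Cd_L and 83.2, 94.5 and 77.8 CPM in CK_L. Abscisic acid hydroxylase, which starts the breakdown of that hormone (Cluster-14691.50813), had 39.9, 47.6 and 105.2 CPM in Cd_L and 101.7, 72.1 and 29.0 CPM in CK_L. The last 2 also overlapped between groups. A lipoxygenase (Cluster-14691.65388), named after its values were seen, had 127.9, 0.0 and 7.32 CPM in Cd_L and 0.722, 21.1 and 0.563 CPM in CK_L, with nearly all of the treated signal in Cd_L replicate 1.

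Protein biosynthesis unigenes differed little, and their log2 fold changes ran from -0.62 to 0.42, with 12 positive and 34 negative. The poly-A binding factor PABP (Cluster-14691.47536) was the most abundant, with 86.0, 77.8 and 74.8 CPM in Cd_L and 93.2, 92.8 and 96.0 CPM in CK_L. It was the 1 member with separate groups, at a log2 fold change of -0.24 (SE 0.18, unadjusted p = 0.217, edgeR). Ribosomal proteins such as RPL22 (Cluster-14691.32186) had 37.7, 35.4 and 39.2 CPM in Cd_L and 39.8, 58.8 and 20.6 CPM in CK_L, with the controls on both sides of the treated leaves.

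The study lists 6 unigenes for scavenging of reactive oxygen and 2 for transport of heavy metals. They were picked on Cd_R against Cd_L, less the DEGs of CK_R against CK_L. Their level and direction in leaf are bound up with that choice. Of the 6, 5 had no count in any leaf library. Ascorbate peroxidase 3 (Cluster-14691.24413), which reduces hydrogen peroxide with ascorbate, had 3.79, 1.43 and 3.06 CPM in Cd_L and 2.38, 4.64 and 2.44 CPM in CK_L. The cadmium and zinc ATPase HMA3 (Cluster-14691.35424), known in rice to load cadmium into root vacuoles, had 0.235, 0.512 and 0.474 CPM in Cd_L and 0.939, 0.184 and 0.563 CPM in CK_L. Neither difference exceeded the spread between replicates (log2 fold changes of -0.19 and -0.48, unadjusted p = 0.668 and 0.467, edgeR).

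The 23 transcription factors in the study's main list were also chosen on Cd_R against Cd_L, less the DEGs of CK_R against CK_L. Both leaf groups entered that choice, so the direction of these factors in leaf is not independent. Of the 23, 11 were tested in leaf and 5 had no leaf count. The unadjusted p was under 0.05 for 1 higher and 1 lower, beside 1.76% and 2.49% of all unigenes. The helix-loop-helix factor Cluster-14691.57184 had 1.41, 2.16 and 2.2 CPM in Cd_L and 1.01, 1.38 and 0.798 CPM in CK_L, with separate groups (log2 fold change of 0.85, SE 0.35). The ERF11 factor Cluster-14691.28900, of a family that acts downstream of ethylene, had 0.391, 0.695 and 0.301 CPM in Cd_L and 1.66, 2.39 and 0.563 CPM in CK_L (log2 fold change of -1.71, SE 0.59). WRKY46 (Cluster-32613.0) was nearly level, with 1.84, 1.61 and 1.38 CPM in Cd_L and 1.52, 1.79 and 1.5 CPM in CK_L. The MYB11-related factor (Cluster-14691.61708) was highest in CK_L replicate 2, with 3.13, 1.61 and 1.25 CPM in Cd_L and 1.08, 5.38 and 1.31 CPM in CK_L.

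The MapMan lists also hold unigenes whose best match was not a grass. Their leaf level is likewise tied to the comparison that chose them, Cd_R against Cd_L less the DEGs of CK_R against CK_L. Of 21 unigenes with a best match outside the land plants, 19 had no leaf count, and their summed level was 1.45 to 2.12 CPM in Cd_L and 1.27 to 3.13 CPM in CK_L. The 46 unigenes with a best match in a land plant other than a grass summed to 2.6 to 2.67 CPM in Cd_L and 2.09 to 4.09 CPM in CK_L. The 144 with a best match in a grass summed to 1609 to 1766 CPM in Cd_L and 1371 to 2282 CPM in CK_L.

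The root libraries took no part in choosing the leaf list. However, the study describes only 3 pots per treatment for leaf and root together. The root values are therefore not independent of the leaf values. Of its members, 50 were tested by edgeR in Cd_R vs CK_R, where 40 had the same sign as in leaf. The unadjusted root p was under 0.05 for 9 of the 50, beside 4.62% of all 55317 unigenes tested in root. The root groups lay apart in 9.64% of all unigenes tested in root. They did so for 6 members with the sign of their leaf difference and for 1 with the opposite sign, the transcription factor unigene Cluster-14691.561, which was higher in Cd_R than in CK_R. The members higher in leaf had a median root log2 fold change of 0.58 (16 tested) and those lower in leaf -0.32 (34 tested), beside -0.018 over all unigenes tested in root. Cluster-14691.67419, with the proton ATPase terms, and its unannotated neighbour Cluster-14691.67420 were higher with cadmium nitrate in both organs, with log2 fold changes of 2.37 and 2.52 in leaf and 1.68 and 2.17 in root (in root, unadjusted p = 0.0181 and unadjusted p = 0.00664 by the quasi-likelihood test of edgeR). The oxidoreductase Cluster-14691.49306 was lower in both, by -1.28 in leaf and -0.92 in root (in root, unadjusted p = 0.0048 by edgeR), and diacylglycerol kinase Cluster-14691.44033 by -1.43 and -1.39 (in root, unadjusted p = 0.0201 by edgeR). None of these passed the adjusted threshold in root.

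**Figure D5:**
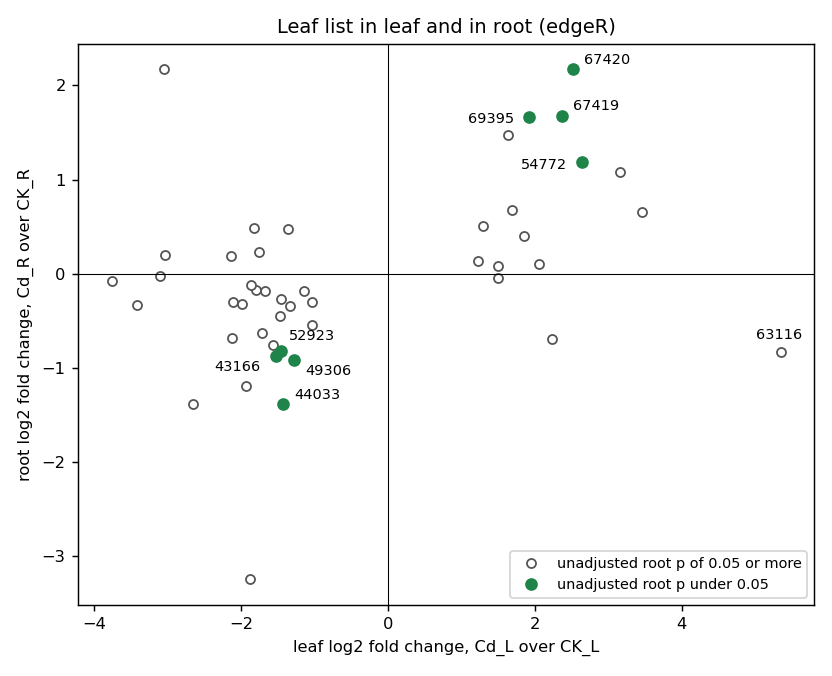
Log2 fold change in root (Cd_R over CK_R) against that in leaf (Cd_L over CK_L), both by edgeR, for the 46 leaf-list unigenes tested in both organs; filled points (8) have an unadjusted root p under 0.05. Those 8 have the same sign in both organs, and the transaminase unigene lies alone at 5.35 in leaf and -0.83 in root.

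The difference between organs was tested as the interaction (Cd_L minus CK_L) minus (Cd_R minus CK_R). Over 61242 unigenes edgeR called 0 (0.0%), with a lowest adjusted p of 0.936, and 1941 had an unadjusted p under 0.05 (3.17%). DESeq2 called 10. Among 53 members of the leaf list in that fit, 22 had an unadjusted p under 0.05, but the leaf values that chose them enter the contrast.

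The 107 unigenes of the study's root list were chosen on libraries that do not include leaves, though from the same set of pots. In leaf, 80 were tested and 9 had no count, and their median log2 fold change was -0.11. The unadjusted leaf p was under 0.05 for 5 higher and 3 lower, beside 1.76% and 2.49% of all unigenes tested. The groups lay apart for 6 higher and 4 lower, beside 4.93% and 4.6% of all unigenes tested. Cluster-14691.60427, without a GO term, had 175.8, 87.3 and 157.6 CPM in Cd_L, against 46.4, 77.0 and 19.7 CPM in CK_L, and its log2 fold changes were 1.56 in leaf and 1.49 in root. Cluster-14691.48422, a membrane protein, was lower in Cd_L, with 87.2, 100.3 and 103.1 CPM in Cd_L and 173.8, 120.4 and 295.0 CPM in CK_L. The proton pump Cluster-14691.15298, driven by pyrophosphate, had 1.92, 2.52 and 3.49 CPM in Cd_L and 0.758, 1.79 and 1.08 CPM in CK_L. Cluster-14691.48128 (phosphatase activity) and Cluster-14691.47226 (DNA helicase) were lower in Cd_L, with log2 fold changes of -0.93 and -1.16, and Cluster-14691.35030 (no GO term) was higher, with 1.64. The remaining 2, Cluster-14691.53514 and Cluster-14691.29495, were higher in Cd_L leaves and lower in Cd_R roots, with log2 fold changes of 1.0 and 0.77 in leaf and -1.85 and -1.41 in root.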

How the data were processed

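The authors deposited RSEM expected counts per unigene, made by mapping poly-A reads back to their own assembly. The library kit was not strand-specific, no genome was used, and near-identical copies can share reads. These deposited counts are neither normalized nor filtered, and 89.4% of the leaf values are whole. Columns were matched to samples by name, and no 2 libraries were identical.

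Counts were rounded and analysed in R 4.3.3 with edgeR 4.0.16 (filterByExpr, TMM, glmQLFit and glmQLFTest on the 6 leaf libraries, Benjamini-Hochberg over all unigenes tested), without a block. The interaction used all 12 libraries. The threshold for DEGs was 0.05 on the adjusted p, with at least a 2-fold change. The standard error is the absolute log2 fold change divided by the square root of F. The authors used DESeq2, which was run here (1.42.0) as an alternative. Taking edgeR's test as the main one was a choice, and the number of leaf DEGs depends on it. Spread and principal components used log2 CPM with a prior count of 2. Other alternatives were RLE factors, library totals, no filter, 10 counts in each of 3 libraries, a joint fit of the 12 libraries, a replicate block, no fold limit, and each library left out. With 1 library left out, the spread is pooled over both groups. The fit was tested on simulated data.

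Unigenes were named where the study's lists annotate them (the leaf list by GO term, qRT-PCR genes, and of the other lists those with an unadjusted p under 0.05 in leaf and up to 4 of the most abundant), with the 8 per direction of lowest p among separate groups at 1 CPM or more. Members and lists were chosen with earlier results of these data known. Replicates are biological replicates per the labels, which do not say whether their numbers mark a block. Authors' fold changes were not used.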

Additional observations from a re-analysis of the deposited data

Results flagged for a closer look

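Among the unigenes of the lists, 4 drew attention for a difference between organs, as either their leaf and root groups lay apart in opposite directions or, for those described individually above, DESeq2 called the interaction (10 calls over all unigenes). The interaction is given as the log2 fold change in leaf minus that in root. Cluster-14691.53514, annotated with amino acid transmembrane transport, had 2.82 (edgeR adjusted p = 0.936, DESeq2 9.91e-08), and Cluster-14691.29495 had 2.16 (edgeR adjusted p = 1.0, DESeq2 0.000434). Both met the first of these conditions. They were thus higher in every Cd_L library than in any CK_L library and lower in every Cd_R library than in any CK_R library. The transcription factor unigene Cluster-14691.561 had -8.3, a fitted value that rests on 1 Cd_L count, with a DESeq2 adjusted p of 0.0107 and 1.0 by edgeR. The transaminase Cluster-14691.63116 had 6.17 (DESeq2 adjusted p = 0.00114, edgeR 1.0), and its root groups overlapped. The 4 came from the study's leaf and root lists, so the values that chose them enter the interaction, and its p-values are no independent support. The share of all unigenes whose groups lay apart in opposite directions is not given here. By edgeR, the main test, none of the 4 differences between organs passed.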

How the results depend on the processing

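In leaf, edgeR called 0 DEGs with RLE factors, library totals, the stricter filter, a joint fit of 12 libraries, no fold limit and each library left out (0 to 0). It called 2 without a filter on low counts, and DESeq2 called 73 with default settings and 55 without independent filtering. With the replicate block edgeR called 0 in leaf, where 1270 unigenes had an unadjusted p under 0.05, and 0 for the interaction. Same-numbered Cd_L and CK_L libraries deviated from their group means in opposite directions (correlations of -0.143, -0.451 and -0.144), and no library correlated best with its own number. Deviations from a mean of 3 libraries depend on each other, so these correlations cannot decide whether the numbers mark a block. For the interaction, DESeq2 called 10 and every other setting 0, with each library left out 0 to 0. The share of separated unigenes was 9.44% to 9.7% over its alternatives, and with library totals 73.1% of them were higher in Cd_L instead of 51.7%. The ratio of spread between to within treatments was 0.854 to 0.964. The settings were compared for 67 of the named unigenes with a fold change. Others, such as the nitrate reductase, ACC oxidase and HMA3 unigenes with overlapping groups, were not among them. Of the 67, 66 kept their sign in every setting tried. The reference gene Cluster-14691.35187 did not, with -0.06 to 0.12 when 1 library was left out. Most of the 67 were named for a low p or for the leaf list chosen on this contrast. Their kept sign was thus largely fixed by that choice. DESeq2 called 49 of the 67. Unigenes below about 1 CPM rest on few counts, and no difference smaller than the spread of 3 replicates could be shown for them.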
